A study of Homo sapiens with 4 samples.

Results

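The carcinoembryonic antigen related cell adhesion molecules (CEACAM) were followed in sorted PC3 cells through 7 genes, CEACAM1, CEACAM3, CEACAM5, CEACAM6, CEACAM7, CEACAM8 and CEACAM19, taken by their symbols from 57963 genes listed in each table. PC3 is a human prostate cancer line derived from a bone metastasis. It carried the lentiviral SORE6-dsGFP reporter, in which binding sites for SOX2 and OCT4 drive a destabilized green fluorescent protein, and was selected with puromycin. Cells were sorted into SORE6+ cells, which had reporter fluorescence and stood for the cancer stem cells, and SORE6- cells, which had none and stood for the other cells. RNA was sequenced in 4 libraries, 2 of SORE6+ cells and 2 of SORE6- cells, numbered replicates 1 and 2 in both gates. Both gates came from 1 transduced and selected line, grown in the same medium between passages 18 and 22, so the SORE6- cells carried the reporter as well and no library was of cells without it. According to the methods the sorted cells came as separate pairs, and libraries of 1 number are set side by side as a pair below, although that meaning of the number is not spelled out in the sources used here. The table headers number the same libraries 2 and 3, in that order in both gates, where the labels have 1 and 2, so either numbering sets the same libraries side by side. CEACAM5 and CEACAM6 were among the genes that the study itself picked from these libraries, so their direction here is not independent evidence of it.

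CEACAM proteins are members of the immunoglobulin superfamily that bind one another, on the same cell or on a neighbouring cell, through their outermost domain. Some are held in the outer leaflet of the membrane by a glycosylphosphatidylinositol (GPI) anchor and have no part inside the cell, whereas others cross the membrane and carry a signalling tail. Their genes lie close together on the long arm of chromosome 19 as products of repeated duplication. CEACAM5 encodes carcinoembryonic antigen itself, a serum marker of colorectal and other carcinomas and a target of antibody therapies, including in neuroendocrine prostate cancer.

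Levels were given as TPM, the transcripts of a gene in each 1000000 transcripts of a library, which correct for transcript length, so that members can be compared within a library. Between 29778 and 31501 genes were above 0 in a library. KRT8, KRT18 and KRT19, keratins of simple epithelium, stood between 663 and 1162 TPM. VIM, the filament protein of mesenchymal cells that PC3 cells also make, was at 237 and 142 TPM in SORE6+ libraries and at 155 and 74.0 TPM in SORE6- libraries, higher in SORE6+ cells within each pair though the gates overlapped, and its part in the results below was not tested. KLK3, prostate-specific antigen, was listed at 0 in every library. SOX2 was at 0.0803 and 0 TPM in SORE6+ libraries and at 0.0207 and 0.0196 TPM in SORE6- libraries. POU5F1, which encodes OCT4, was at 3.09 and 2.61 TPM in SORE6+ libraries and at 2.82 and 2.14 TPM in SORE6- libraries. The gates overlapped in the RNA of SOX2 and POU5F1. Within each pair POU5F1 was higher in SORE6+ cells, while the pairs of SOX2, near 0 TPM, went opposite ways. By flow cytometry the study reported more of both proteins in SORE6+ PC3 cells. NANOG was at most 0.110 TPM. Granulocytes express several CEACAM genes, but all 9 granulocyte markers were under 1 TPM in every library, with MPO at most 0.0159 TPM and ELANE, S100A12, FCGR3B and CXCR2 at 0. Their summed level was 0.997 and 0.538 TPM in SORE6+ libraries and 1.24 and 0.839 TPM in SORE6- libraries. The 5 fibroblast markers summed to 31.7 and 15.5 TPM in SORE6+ libraries and to 41.1 and 14.7 TPM in SORE6- libraries, most of it COL1A1. LUM was at 3.09 and 1.99 TPM in SORE6+ libraries and at 2.61 and 1.45 TPM in SORE6- libraries. COL3A1 was at most 1.21 TPM, DCN at most 0.547 TPM and COL1A2 at most 0.305 TPM. The 3 endothelial markers summed to 14 and 12.4 TPM in SORE6+ libraries and to 14.5 and 17.0 TPM in SORE6- libraries, most of it PECAM1, while VWF and CDH5 were at most 0.261 TPM.

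Of the 7 members, CEACAM5 was the most abundant in every library, CEACAM1, CEACAM6 and CEACAM19 followed at 4.75 to 9.98 TPM, CEACAM3 was near 1 TPM, and CEACAM7 and CEACAM8 were near 0. CEACAM5 and CEACAM6 were higher in both SORE6+ libraries than in either SORE6- library. CEACAM19 was lower in both SORE6+ libraries, and the gates overlapped for the other members. The order of the members by their means differed between the gates below CEACAM5. In SORE6+ cells CEACAM6 came next, with CEACAM19 and CEACAM1 after it, and the libraries of these neighbours overlapped. In SORE6- cells CEACAM19 came next, followed by CEACAM1 and CEACAM6, and the libraries of each neighbour in that order lay apart. The mean of CEACAM5 was above the means of 77.3% of 19827 protein-coding genes in SORE6+ cells and of 65.6% in SORE6- cells, and that of CEACAM6 above 53.1% in SORE6+ cells and 46.9% in SORE6- cells.

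**Figure D1:**
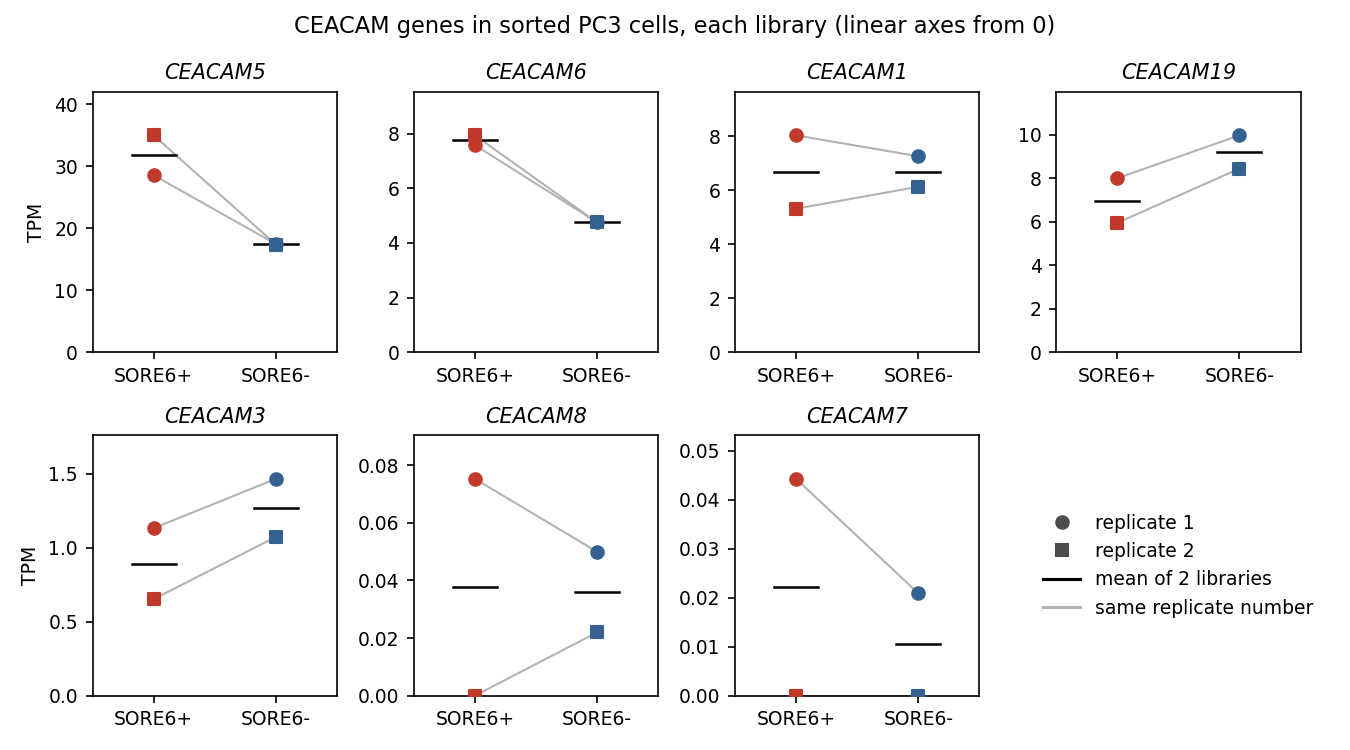
TPM of the 7 members in each library, SORE6+ left of SORE6- for each gene, with points for libraries, a grey line between libraries of 1 replicate number, a black bar at the mean of a gate and a linear axis of its own for each gene. The SORE6+ points of CEACAM5 (28.5 and 35.0 TPM) and CEACAM6 (7.59 and 7.94 TPM) lie above both SORE6- points, those of CEACAM19 (8.0 and 5.95 TPM) lie below them, and the axes of CEACAM7 and CEACAM8 end near 0.

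Among the GPI-anchored members, CEACAM5 (ENSG00000105388.15, GRCh38 chromosome 19, 41708585 to 41729798, plus strand) was at 28.5 and 35.0 TPM in SORE6+ replicates 1 and 2, against 17.4 and 17.4 TPM in SORE6- replicates 1 and 2. Both SORE6+ libraries were above both SORE6- libraries, which hardly differed from each other. The mean was 31.8 ± 4.56 TPM in SORE6+ cells and 17.4 ± 0.0486 TPM in SORE6- cells (SD, n = 2 each), a fold of 1.82. CEACAM6 (ENSG00000086548.8, 41750977 to 41772208, plus strand), the next gene along the chromosome among the members and also attached by a GPI anchor, was at 7.59 and 7.94 TPM in SORE6+ libraries, against 4.75 and 4.75 TPM in SORE6- libraries. Its gates did not overlap either, and its mean was 7.76 ± 0.251 TPM in SORE6+ cells and 4.75 ± 0.00106 TPM in SORE6- cells (SD, n = 2 each), a fold of 1.63. By pair, the fold of CEACAM5 was 1.64 in replicate 1 and 2.01 in replicate 2, and that of CEACAM6 was 1.60 and 1.67. With 2 libraries a gate, an SD as small as that of the SORE6- libraries of these genes may understate the true spread.

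CEACAM7 (ENSG00000007306.14, 41673307 to 41706976, minus strand), a GPI-anchored member known from the surface of colonic epithelium, was at 0.0443 and 0 TPM in SORE6+ libraries and at 0.0209 and 0 TPM in SORE6- libraries. CEACAM8 (ENSG00000124469.11, 42580241 to 42595055, minus strand), the GPI-anchored CD66b antigen of granulocytes, was at 0.0753 and 0 TPM in SORE6+ libraries and at 0.050 and 0.0220 TPM in SORE6- libraries. Neither reached 1 TPM in any library, no fold is given for them, and the lack of read counts means that the number of reads behind these values is unknown. CEACAM7 lies directly before CEACAM5 on the chromosome, on the opposite strand.

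The promoters of 4 members are shown because they contrast the pair of genes that were higher in SORE6+ libraries, CEACAM5 and CEACAM6, with the nearby CEACAM7 and with CEACAM1, which is not GPI-anchored. Each is the 250 bases before the RefSeq start in GRCh38.p14, written 5′ to 3′ on the strand of the gene, and the capitals mark the hexamer CACGTG of CEACAM5 and the bases aligned with it in the other genes. CACGTG is the E-box to which the upstream stimulatory factors USF1 and USF2 bind, and it reads the same on both strands.
CEACAM5 (chr19:41708376-41708625, plus strand): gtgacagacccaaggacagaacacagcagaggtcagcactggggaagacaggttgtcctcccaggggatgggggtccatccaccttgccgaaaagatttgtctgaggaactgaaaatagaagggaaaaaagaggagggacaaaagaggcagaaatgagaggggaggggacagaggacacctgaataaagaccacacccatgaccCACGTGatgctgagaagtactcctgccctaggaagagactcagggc
CEACAM6 (chr19:41755280-41755529, plus strand): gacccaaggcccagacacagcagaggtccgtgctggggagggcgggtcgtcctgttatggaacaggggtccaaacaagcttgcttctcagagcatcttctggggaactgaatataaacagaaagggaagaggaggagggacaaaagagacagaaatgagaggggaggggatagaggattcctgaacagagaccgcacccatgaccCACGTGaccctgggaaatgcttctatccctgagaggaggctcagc
CEACAM7 (chr19:41688271-41688520, minus strand): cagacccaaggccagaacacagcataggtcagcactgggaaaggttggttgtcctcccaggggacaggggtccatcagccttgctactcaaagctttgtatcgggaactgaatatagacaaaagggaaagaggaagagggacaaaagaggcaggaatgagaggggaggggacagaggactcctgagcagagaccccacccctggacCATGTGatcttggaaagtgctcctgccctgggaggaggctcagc
CEACAM1 (chr19:42528482-42528731, minus strand): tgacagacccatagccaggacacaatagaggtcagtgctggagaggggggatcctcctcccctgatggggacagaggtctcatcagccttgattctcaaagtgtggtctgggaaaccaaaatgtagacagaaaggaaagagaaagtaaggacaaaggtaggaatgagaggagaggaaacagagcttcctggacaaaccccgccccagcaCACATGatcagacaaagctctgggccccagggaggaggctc

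Of the 6 members with a RefSeq window, CEACAM5 and CEACAM6 held CACGTG, at -46 to -41 and at -45 to -40 relative to the start, and CEACAM1, CEACAM3, CEACAM7 and CEACAM8 did not. Of 35116 promoter windows of the same length, 6.35% held it. With positions counted from 1 at the 5′ end of the CEACAM5 hexamer and the base of CEACAM5 given first, CEACAM7 had the substitution C3T, CEACAM1 had G4A, CEACAM3 had A2C and G4A, and CEACAM8 had G4A and 2 gaps. The shorter letters ACGTG, which lie inside the E-box and were searched on both strands, were likewise in CEACAM5 and CEACAM6 and in no other member, against 18.5% of all windows. The GC box GGGCGG, the sequence bound by SP1 and also searched on both strands, was in CEACAM6, CEACAM1 and CEACAM8 and in 42.6% of all windows. The octamer ATGCAAAT, bound by OCT4, and CATTGT, the core of SOX sites, were searched on both strands and were in none of the 6 windows, against 1.63% and 9.29% of all windows. Such matches describe letters in a window and do not show that a factor was bound. Over aligned bases, CEACAM5 and CEACAM7 were 83.2% identical and CEACAM5 and CEACAM6 were 78.1% identical, while CEACAM5 and CEACAM8 were 58.0% identical, the lowest value among the 6. The promoter of CEACAM7, a gene near 0 TPM, was thus nearer in sequence to that of CEACAM5 than the promoter of CEACAM6 was. The RefSeq starts of these windows differ from the outermost GENCODE v29 starts given with the genes. They lie close together for CEACAM5 but kilobases apart for CEACAM6, CEACAM7 and CEACAM1. Which start PC3 cells use was not tested, and the contrast between windows depends on it.

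Among the members that cross the membrane, CEACAM1 (ENSG00000079385.21, 42507304 to 42561234, minus strand), an inhibitory receptor whose long tail recruits the phosphatases encoded by PTPN6 and PTPN11, was at 8.04 and 5.32 TPM in SORE6+ libraries, against 7.26 and 6.13 TPM in SORE6- libraries. Both SORE6+ values lay outside the SORE6- pair, 1 above and 1 below, and the means were 6.68 ± 1.92 TPM in SORE6+ cells and 6.70 ± 0.800 TPM in SORE6- cells (SD, n = 2 each). Gene-level TPM does not separate its long and short tail forms. CEACAM3 (ENSG00000170956.16, 41796437 to 41811553, plus strand), a granulocyte receptor for the uptake of bacteria, was at 1.13 and 0.653 TPM in SORE6+ libraries, against 1.46 and 1.07 TPM in SORE6- libraries. These values overlapped, and CEACAM3 was the lowest member to reach 1 TPM in at least 2 libraries. CEACAM19 (ENSG00000186567.12, 44662278 to 44684359, plus strand), a transmembrane member whose function is little known and whose gene lies apart from the others, was at 8.0 and 5.95 TPM in SORE6+ libraries, against 9.98 and 8.45 TPM in SORE6- libraries. Its gates did not overlap, with a mean of 6.98 ± 1.45 TPM in SORE6+ cells and 9.21 ± 1.08 TPM in SORE6- cells (SD, n = 2 each).

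Differences between the gates were tested with limma on log2(TPM + 1) over 17642 genes, those that reached 1 TPM in 2 or more libraries, with the gate as the only term. A call needed both an adjusted p under 0.1 and a change of 1.5-fold or more. In all, 5 of the 7 members passed the filter, and 2 did not. No member was called in either direction, and neither was any of the 17642 genes, which is 0% in each direction. At an unadjusted p under 0.05 in limma stood 2 members, CEACAM5 and CEACAM6, beside 673 of all genes tested (3.81%). The log2 difference, SORE6+ minus SORE6-, was 0.82 for CEACAM5 (SE 0.15, 95% interval 0.41 to 1.24, limma adjusted p = 0.726). For CEACAM6 it was 0.61 (SE 0.15, 95% interval 0.19 to 1.03, limma adjusted p = 1.00). For CEACAM1 it was -0.02 (0.0485 with relative log expression factors, so its sign turned), with a limma 95% interval of -0.69 to 0.64, which holds the differences estimated for CEACAM6 and, in the other direction, for CEACAM19. For CEACAM3 it was -0.27 (interval -0.98 to 0.44), and for CEACAM19 it was -0.36 (interval -0.93 to 0.20). The median log2 difference over all genes tested was -0.05.

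With the replicate number as a block, the standard errors of CEACAM5 and CEACAM6 were smaller. In limma with the block over protein-coding genes (12826 tested), both were called higher, beside 71 genes in all (0.554%). No member was called lower, beside 93 genes (0.725%). In that fit 3174 genes (24.7%) were at an unadjusted p under 0.05 in limma. The block left few residual degrees of freedom for each gene, so its intervals lean on the variance pooled across genes. CEACAM5 then had an SE of 0.09, a 95% interval of 0.60 to 1.05 and an adjusted p of 0.0223 in limma. CEACAM6 had an SE of 0.11, an interval of 0.34 to 0.88 and an adjusted p of 0.0523 in limma. In limma with the block over all 17642 genes neither was called, at adjusted p = 0.235 and 0.239, and 0 genes were called, with 2982 (16.9%) at an unadjusted p under 0.05. Both calls thus rest on the block together with the smaller set of genes, and they were also lost there without the filter on low values, where the adjusted p was 0.228 for both and 0 genes were called. CEACAM19 had a block interval of -0.62 to -0.11 and an adjusted p of 0.110 in limma over protein-coding genes and was not called. CEACAM1 had an interval of -0.32 to 0.28 in the same fit.

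Pair by pair on the log2(TPM + 1) scale, CEACAM5 differed by 0.68 in replicate 1 and 0.97 in replicate 2, and CEACAM6 by 0.58 and 0.64. CEACAM1 differed by 0.13 and -0.17, so its pairs went opposite ways, whereas CEACAM3 differed by -0.21 and -0.33 and CEACAM19 by -0.29 and -0.44. Of all protein-coding genes tested, 25.3% were higher in SORE6+ cells in both pairs and 43.3% were lower in both. Of all 17642 genes, 10.9% had both SORE6+ libraries above both SORE6- libraries, as CEACAM5 and CEACAM6 did, and 20.2% had both below, as CEACAM19 did. Over protein-coding genes alone these shares were 11.2% and 19.4%. Separation of the gates and a like sign in both pairs were therefore common among genes and are no result about these members. Leaving out SORE6+ replicate 2 brought the difference of CEACAM19 to -0.18 and that of CEACAM3 to -0.08, and that of CEACAM1 to 0.24. Leaving out SORE6+ replicate 1 brought CEACAM19 to -0.55, CEACAM3 to -0.45 and CEACAM1 to -0.28. Leaving out SORE6- replicate 1 brought CEACAM3 to -0.14 and CEACAM1 to 0.08, and leaving out SORE6- replicate 2 brought CEACAM1 to -0.13. CEACAM5 and CEACAM6 stayed between 0.68 and 0.97 and between 0.58 and 0.64 whichever library was left out.

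**Figure D2:**
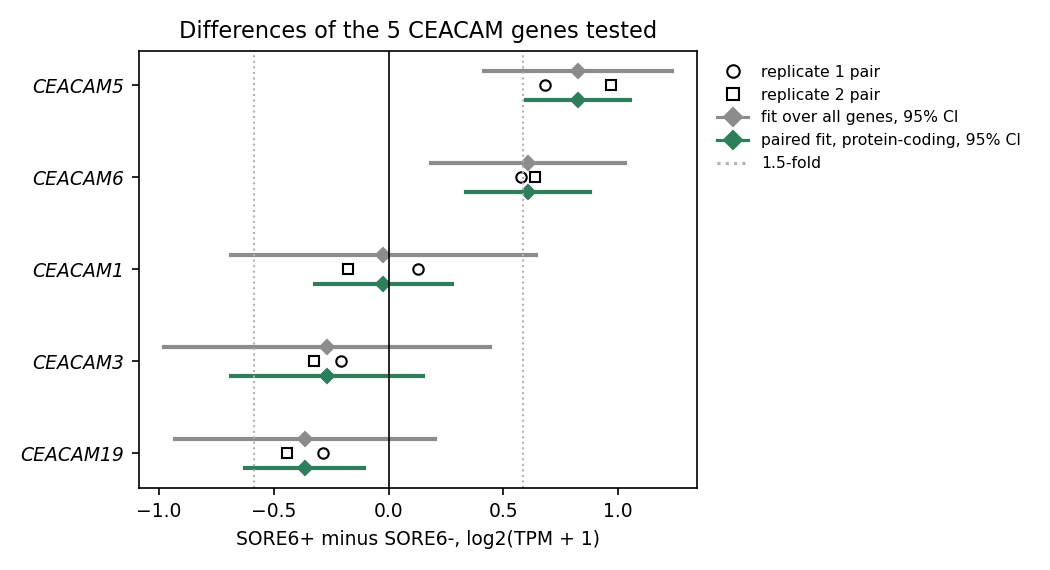
Log2 difference, SORE6+ minus SORE6-, of each member that passed the filter, with its limma estimate and 95% interval over all genes without the block and over protein-coding genes with it, the value of each pair, and dotted lines at 1.5-fold. The pair points of CEACAM5 (0.68 and 0.97) and CEACAM6 (0.58 and 0.64) lie above 0 in both pairs, those of CEACAM19 (-0.29 and -0.44) lie below 0, and those of CEACAM1 fall on either side of it.

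The neighbours CEACAM5 and CEACAM6 were also compared as a ratio within each library. CEACAM5 was 3.76 and 4.41 times CEACAM6 in SORE6+ libraries, against 3.67 and 3.66 times in SORE6- libraries. The log2 ratio was higher by 0.15 in SORE6+ cells, with 0.04 in replicate 1 and 0.27 in replicate 2, and leaving out each library in turn gave 0.04 to 0.27. The ratio of CEACAM5 to CEACAM1 was 3.55 and 6.58 in SORE6+ libraries, against 2.40 and 2.83 in SORE6- libraries, a log2 difference of 0.89 with 0.56 and 1.22 in the pairs. That difference was 0.45 without SORE6+ replicate 2 and 1.33 without SORE6+ replicate 1. Both differences had a two-sided exact permutation p of 0.333, the smallest p that 2 libraries against 2 allow. The 7 members together summed to 53.4 and 54.9 TPM in SORE6+ libraries, against 41.0 and 37.8 TPM in SORE6- libraries, a fold of 1.37 between the means. CEACAM5 made up 53.4% and 63.8% of that sum in SORE6+ libraries and 42.6% and 46.0% in SORE6- libraries. CEACAM19 made up 15% and 10.8% in SORE6+ libraries and 24.4% and 22.4% in SORE6- libraries. Without CEACAM5, the sum was 24.9 and 19.9 TPM in SORE6+ libraries and 23.5 and 20.4 TPM in SORE6- libraries, and these overlapped. Values are of bulk RNA, in which fewer cells that express a gene and less of its RNA per cell cannot be told apart.

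**Figure D3:**
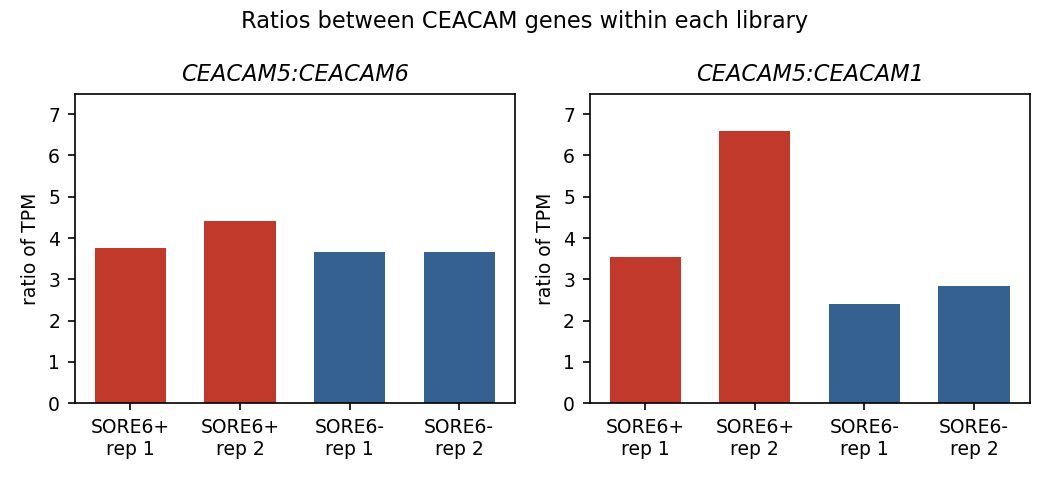
Ratio of CEACAM5 to CEACAM6 and of CEACAM5 to CEACAM1 in each library, with SORE6+ left of SORE6- and bars that start at 0 and stand for single libraries. The ratio of CEACAM5 to CEACAM6 lies between 3.66 and 4.41 in all 4 libraries, and that of CEACAM5 to CEACAM1 is 3.55 and 6.58 in SORE6+ libraries and 2.40 and 2.83 in SORE6- libraries.

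Because the members are paralogs, reads can match more than 1 of them, and salmon, which the authors used, divides such reads by estimation. Of the distinct 31-base sequences in the GENCODE v29 transcripts of CEACAM5, 5.57% also occurred in CEACAM6, and 9.29% in any other member. A further gene, AC243967.1, shared 16.3% of the sequences of CEACAM5. It runs from CEACAM5 into CEACAM6 on the same strand, and it was at 0.483 and 0 TPM in SORE6+ libraries and at 0 in both SORE6- libraries. CEACAM6 shared 6.19% of its sequences with CEACAM5 and 10.6% with any member. CEACAM1, CEACAM3 and CEACAM8 shared 5.46%, 8.73% and 5.76% with other members, while CEACAM7 shared 0.898% and CEACAM19 shared 0.0373%. In 75-base sequences the share with other members was 0.110% for CEACAM5 and 0.134% for CEACAM6 and at most 1.37% for any member, while 13.9% of the sequences of CEACAM5 still occurred in some other gene. The part of such sharing in the differences was not tested. CEACAM1 also overlaps exons of LIPE-AS1 on the opposite strand over 3.35% of its exon bases, and CEACAM19 overlaps exons of PVR on its own strand over 2.33%. LIPE-AS1 was at 1.88 and 1.31 TPM in SORE6+ libraries and at 2.99 and 1.41 TPM in SORE6- libraries, and PVR at 36.7 and 37.7 TPM in SORE6+ libraries and at 36.2 and 38.7 TPM in SORE6- libraries.

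The wider family was read from the same tables through 16 further genes, 10 of them pregnancy-specific glycoprotein (PSG) genes, which lie in the same cluster and encode secreted proteins of the placenta. All 16 were under 1 TPM in every library, and CEACAM4, CEACAM16 and CEACAM18 were at 0 in every library. The highest value was 0.922 TPM, for PSG11 in SORE6+ replicate 2, and PSG11 was at 0 in SORE6+ replicate 1. Along the chromosome, 4 of 13 protein-coding genes within 250 kb of CEACAM5 or CEACAM6 passed the filter, 0 were called in either direction in limma, with 0 at an unadjusted p under 0.05, and the median log2 difference was 0.18. RPS19, a ribosomal protein gene, was at 1035 and 1177 TPM in SORE6+ libraries and at 995 and 1069 TPM in SORE6- libraries, and the gates overlapped. RABAC1, which encodes a membrane trafficking protein, was at 105 and 111 TPM in SORE6+ libraries and at 90.3 and 89.1 TPM in SORE6- libraries, and the gates did not overlap. Its log2 difference was 0.26, below those of CEACAM5 and CEACAM6. ARHGEF1, a gene named after its values were seen, differed by -0.02. With the replicate block over protein-coding genes, 0 of the 4 neighbours tested were called in limma. In that fit 2 were at an unadjusted p under 0.05, beside 24.7% of all genes tested.

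**Figure D4:**
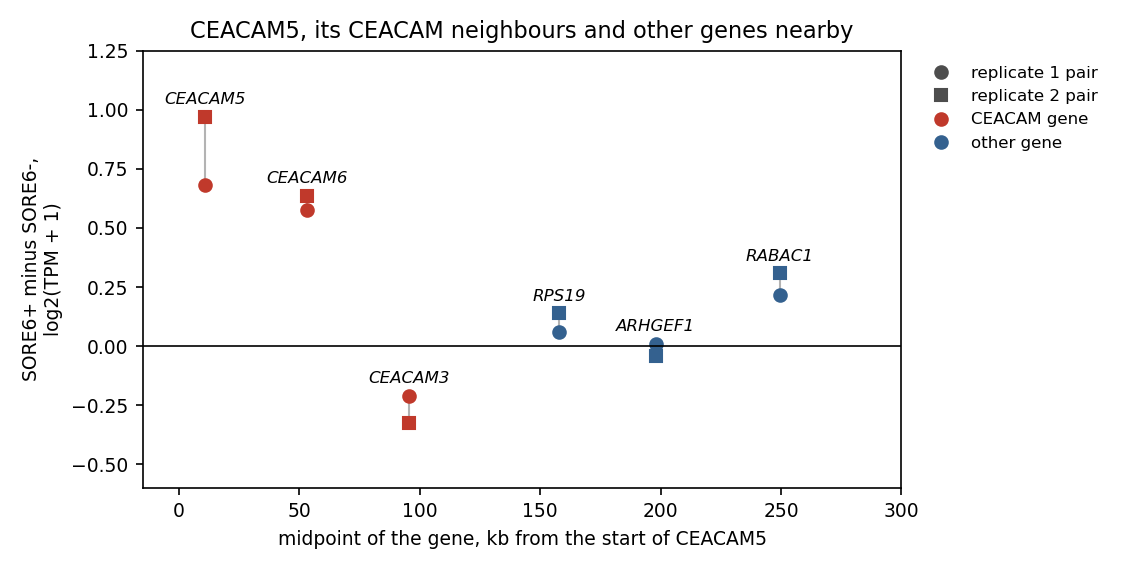
Log2 difference, SORE6+ minus SORE6-, by pair, of CEACAM genes and of 3 of the 4 other protein-coding genes nearby that passed the filter, by the distance in kb of each gene's midpoint from the start of CEACAM5. Both pairs of CEACAM5 (0.68 and 0.97) and CEACAM6 (0.58 and 0.64) lie above those of the other genes plotted, CEACAM3 (-0.21 and -0.33) lies below 0, and RABAC1 (0.22 and 0.31) lies between.

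Genes known to act with CEACAM proteins were described by lists, beside a median of -0.05 over all genes tested. Of 15 partners and signalling genes, 12 passed the filter, 0 were called in limma, 0 were at an unadjusted p under 0.05, and the median log2 difference was -0.03. The most abundant were ITGB1, an integrin chain, at 779 and 679 TPM in SORE6+ libraries and 871 and 834 TPM in SORE6- libraries, and FLNA, an actin cross-linker that binds the tail of CEACAM1, at 450 and 431 TPM in SORE6+ libraries and 428 and 476 TPM in SORE6- libraries. Of 15 genes for factors that bind CEA family promoters or act on CEACAM1 splicing, 12 passed the filter, 0 were called in limma, 0 were at an unadjusted p under 0.05, and the median was -0.09, or 0.0020 without SORE6+ replicate 2. HNRNPA1, a splicing factor, was at 828 and 902 TPM in SORE6+ libraries and at 1008 and 1103 TPM in SORE6- libraries, and HNRNPL at 314 and 269 TPM in SORE6+ libraries and 305 and 286 TPM in SORE6- libraries. USF1, whose E-box is printed above and which was named for that reason after its values were seen, had 47.6 and 57.0 TPM in SORE6+ libraries and 47.0 and 47.5 TPM in SORE6- libraries. USF2, named for the same reason, had 62.3 and 57.4 TPM in SORE6+ libraries and 61.4 and 63.7 TPM in SORE6- libraries. Neither was called.

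All 25 genes of GPI anchor synthesis and attachment passed the filter, 0 were called in limma without a block, 0 were at an unadjusted p under 0.05, and the median was -0.08. The most abundant were PIGT, at 133 and 137 TPM in SORE6+ libraries and 115 and 131 TPM in SORE6- libraries, and GPAA1, at 136 and 120 TPM in SORE6+ libraries and 123 and 105 TPM in SORE6- libraries, both subunits of the transamidase that attaches the anchor. With the replicate block over protein-coding genes, 1 of the 25 was called lower in limma, beside 93 of 12826 genes (0.725%). It was PIGY, a small subunit of the enzyme that begins the anchor, at 21.1 and 7.92 TPM in SORE6+ libraries and 45.5 and 20.4 TPM in SORE6- libraries. Its log2 difference was -1.17 (SE 0.09, limma adjusted p = 0.0150), its gates overlapped and its pairs differed by -1.07 and -1.26. PIGY lies within another gene, PYURF, on the same strand, and is uncertain for that reason. Of 20 other epithelial surface antigens, 18 passed the filter, 0 were called in limma, 1 was at an unadjusted p under 0.05, and the median was 0.08, or -0.06 without SORE6+ replicate 1 and -0.05 without SORE6- replicate 2. The gene at that p, PSCA, a GPI-anchored prostate stem cell antigen named after its values were seen, was at 3.44 and 3.10 TPM in SORE6+ libraries and at 5.20 and 5.26 TPM in SORE6- libraries. EPCAM, an adhesion molecule of epithelia, was at 233 and 189 TPM in SORE6+ libraries and 263 and 227 TPM in SORE6- libraries, and CD24, a GPI-anchored sialoglycoprotein, was at 224 and 250 TPM in SORE6+ libraries and 228 and 243 TPM in SORE6- libraries. With the replicate block over protein-coding genes, 0 of the 18 antigens were called in limma. In that fit 4 of them and 9 of the 25 GPI anchor genes were at an unadjusted p under 0.05, beside 24.7% of all genes tested.

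The genes whose pattern over the 4 libraries was most like that of CEACAM5 were sought among 10362 protein-coding genes with a mean of at least 5 TPM, by the Euclidean distance between log2(TPM + 1) values centred on each gene's mean. The nearest 5 were CD68, a lysosomal membrane glycoprotein, B4GALNT1, an enzyme of ganglioside synthesis, ASAH2, a neutral ceramidase, TFF2, a trefoil factor, and SOD3, the extracellular superoxide dismutase, at distances of 0.140 to 0.235. CD68 was at 47.9 and 53.8 TPM in SORE6+ libraries and at 30.7 and 27.5 TPM in SORE6- libraries. CEACAM6 would have stood at rank 7, at a distance of 0.270. For CEACAM6 the nearest 5 were MGLL, a monoacylglycerol lipase, DEPP1, TCAF2, MUC3A, a membrane mucin, and SERPIND1, a plasma inhibitor of thrombin, at distances of 0.0601 to 0.122, and CEACAM5 would have stood at rank 64. MGLL was at 27.4 and 27.6 TPM in SORE6+ libraries and at 18.2 and 18.5 TPM in SORE6- libraries. Over 4 libraries such nearness is a description and was not tested.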

How the data were processed

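Libraries of sorted PC3 cells, 2 of SORE6+ and 2 of SORE6- cells, were read as deposited. The authors trimmed reads with Trim Galore, checked them with FastQC and MultiQC, quantified transcripts with salmon and tested with DESeq2; the version of each is not given in the sources used here. GRCh38 is the build in the submitters' processing notes. Each deposited table holds TPM per gene as computed by the authors. TPM keeps no read counts, so depth is unknown (a depth of 30 M reads of 100 bp was planned), no counting error could be given and the authors' count test was not repeated. IDs were matched to GENCODE v29, 57844 of 57963 without their version.

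Genes that reached 1 TPM in 2 or more libraries were tested on log2(TPM + 1) with limma 3.58.1 (R 4.3.3), a prior variance trended on mean level and Benjamini-Hochberg adjustment over all genes tested. A fold change on this scale understates that of low genes. The script was tested on simulated data. No source used here says that replicates were separate cultures beyond being separate pairs of sorted cells, so p-values measure only the spread between these libraries. Both gates carry replicate numbers 1 and 2, and deviations from the gate mean correlated between same-numbered libraries, at 0.344 across 17642 genes, which are not independent. A replicate block was therefore fitted as well, over all genes and over protein-coding genes.

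The members and lists were chosen with earlier results of these data known. All members were named, with the genes of each list that were called and otherwise its most abundant 2, the 5 genes nearest to CEACAM5 and to CEACAM6, and the reporter's factors. Alternatives were a pseudocount of 0.1, no filter, relative log expression or upper-quartile factors, protein-coding genes only, the block, and each library left out. Promoter windows are those of RefSeq (GRCh38.p14), which matched 6 of 7 members, not CEACAM19, aligned with MAFFT 7.526. Some items are not reported here. Shared sequence was counted in 31-base and, as an alternative, 75-base sequences. Tables used Python 3.11.15, numpy 2.4.6 and pandas 2.3.3, and figures matplotlib 3.10.9.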

Additional observations from a re-analysis of the deposited data

How the results depend on the processing

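With the replicate block over protein-coding genes, 2 members were called higher, CEACAM5 (log2 difference 0.82) and CEACAM6 (0.61), beside 71 genes higher and 93 lower; without the block, or with the replicate block over all genes, 0 were called, and it changed no other member's call. Of 4 settings of that fit chosen after seeing the data, 3 also called these 2 members. A pseudocount of 0.1 gave 0.86 and 0.70, with 90 genes higher and 130 lower, relative log expression factors gave 0.90 and 0.68, with 106 and 68, and upper-quartile factors gave 0.90 and 0.67, with 105 and 73. The other, with no filter, called 0 genes. CEACAM1 changed sign, to 0.0485 with relative log expression and 0.0433 with upper-quartile factors, with or without the block, and ran between -0.28 and 0.24 with each library left out. Leaving out each library gave 0 genes called and medians of -0.12 to 0.0066 for the GPI anchor list, 0.20 to 0.24 for the chromosome 19 neighbours, -0.04 to 0.02 for the partners, -0.18 to 0.0020 for the promoter factors and -0.06 to 0.20 for the surface antigens, so no direction of these lists other than that of the neighbours held. Under relative log expression factors and then upper-quartile factors, with or without the block, the list medians were 0.0562 and 0.0503 for the partners, 0.0031 and -0.0027 for the GPI anchor genes, -0.0070 and -0.0128 for the promoter factors, 0.15 and 0.14 for the surface antigens and 0.26 and 0.26 for the neighbours, which stood at 0.10 with no filter in both fits. These factors moved the median of all genes from -0.05 to 0.02 and 0.01. Sequences of 75 bases lowered the share common to any other gene to 13.9% for CEACAM5, against 23.1% at 31 bases, and to 2.69% for CEACAM6, against 14.4%, and the share common to other members to 0.110% and 0.134%, against 9.29% and 10.6%. All other alternatives kept direction and side of the threshold for CEACAM3, CEACAM5, CEACAM6 and CEACAM19. Within the block, leaving out a library left no residual degree of freedom, so the calls of the paired fit could not be checked that way. The limits are 2 libraries a gate, from 1 line, and values without read counts.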
